A study of Homo sapiens with 11 samples.

Results

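Genes that write, erase and read methyl marks on histones and DNA were followed in neuroblastoma cells given vorinostat, a hydroxamic acid that inhibits histone deacetylases. The genes were chosen by symbol, 48 in all, of which 15 encode Polycomb proteins, 12 histone methyltransferases, 14 histone demethylases and 7 enzymes or cofactors of DNA methylation. Of these, 44 had a probe with a gene name, and 36 were tested among 10323 genes in the whole data set. Probes for EZH1, EHMT1, DOT1L, SETD7, KDM4A, KDM5C, KDM6B and TET2 were not above background on every array of any group and were not tested. No probe was named for RNF2, CBX8, KDM5A and TET3.

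RNA came from SK-N-BE(2)-C, an established neuroblastoma cell line with an amplified MYCN gene, and was hybridized to 11 arrays of the Illumina HT-12 v4 type. Cells had received 500 nM vorinostat for 24 h (3 arrays) or the solvent DMSO for 24 h (3 arrays), and 500 nM vorinostat for 6 d (2 arrays) or DMSO for 6 d (3 arrays). All groups share the cell line and a medium with fetal calf serum, so that the results describe 1 line, and neither protein nor histone or DNA marks were measured on these arrays. Levels are log2 intensities after background correction and quantile normalization, and a fold change is vorinostat over DMSO at the same time.

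Polycomb proteins form a pair of repressive complexes. PRC2, with the methyltransferase EZH2 (or EZH1) and its partners EED and SUZ12, methylates a lysine of histone H3, and PRC1, built on RING1 or RNF2, ubiquitinates histone H2A and holds CBX proteins that bind the PRC2 mark. Other methyltransferases set marks of heterochromatin, active promoters or transcribed gene bodies, and demethylases of the LSD1 and Jumonji classes take methyl groups off. DNA methylation is copied at replication by DNMT1 with UHRF1, set anew by DNMT3A and DNMT3B, and oxidized by TET enzymes. EZH2 is known as a highly expressed gene of MYCN-driven neuroblastoma.

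Array quality bears on all comparisons. Mean intensities before normalization were 401 to 413 on the vorinostat arrays and 272 to 302 on the DMSO arrays of 24 h, and 283 and 338 with vorinostat against 323 to 383 with DMSO at 6 d. The array names of 24 h end in a number that differs between vorinostat and DMSO, and at 6 d both groups share 1 number. It was read as the BeadChip, which the labels do not name, and BeadChip below means this number. At 24 h this number and treatment cannot be told apart. The detection filter was passed by 7 noradrenergic neuroblastoma markers, with MYCN between 14.11 and 14.46 on every array. The blood and endothelial markers PTPRC, CD3E, PECAM1 and CDH5 did not pass. Of the epithelial markers KRT8 did not pass, and EPCAM passed only through the DMSO arrays of 6 d, at a mean of 5.43. EPCAM was detected on 0 of 2 vorinostat arrays of 6 d. Its fitted log2 fold change there was -0.71, without overlap of the arrays, and was not called (adjusted p = 0.112 from limma). The methods describe independent experiments for 24 h, and for 6 d the labels give replicate numbers without saying what they are. All 4 groups share 1 estimate of the spread per gene. The p-values of 6 d thus measure a spread between samples that comes in part from the 24 h groups. With the arrays of 6 d alone 136 genes were higher and 414 lower, in place of 413 and 724.

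The promoters of 4 genes are shown. PHF19 (lower) and KDM5B (higher) had the largest changes of any member at 24 h, and UHRF1 (lower) and JARID2 (higher) are a further gene of each direction, picked with their values and windows known. Each is the 250 bases before the start of the gene in RefSeq (GRCh38.p14), 5′ to 3′ on the strand of the gene. Capitals mark exact matches on either strand to an E2F word (TTTCCCGC or else TTTGGCGC), an E-box (CACGTG), the CCAAT box, a GC box (GGGCGG) and the NRF1 motif, and the overlapping capitals in KDM5B are a pair of GC boxes.
PHF19, chr9:120868912-120869161, minus strand: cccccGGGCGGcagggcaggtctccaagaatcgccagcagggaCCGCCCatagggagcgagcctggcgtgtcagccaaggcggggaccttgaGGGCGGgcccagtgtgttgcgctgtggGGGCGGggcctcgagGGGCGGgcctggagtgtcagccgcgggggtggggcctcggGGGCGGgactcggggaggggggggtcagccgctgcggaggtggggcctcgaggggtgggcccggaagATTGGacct
UHRF1, chr19:4909251-4909500, plus strand: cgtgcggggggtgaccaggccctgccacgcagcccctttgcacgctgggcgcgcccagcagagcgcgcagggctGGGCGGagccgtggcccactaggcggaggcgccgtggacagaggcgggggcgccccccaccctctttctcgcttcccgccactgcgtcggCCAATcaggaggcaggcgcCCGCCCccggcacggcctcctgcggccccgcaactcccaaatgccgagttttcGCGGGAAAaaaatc
KDM5B, chr1:202808422-202808671, minus strand: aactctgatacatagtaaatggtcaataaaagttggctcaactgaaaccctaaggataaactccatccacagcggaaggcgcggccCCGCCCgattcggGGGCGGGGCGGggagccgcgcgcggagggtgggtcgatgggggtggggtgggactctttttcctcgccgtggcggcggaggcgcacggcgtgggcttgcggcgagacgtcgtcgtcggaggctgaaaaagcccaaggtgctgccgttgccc
JARID2, chr6:15245819-15246068, plus strand: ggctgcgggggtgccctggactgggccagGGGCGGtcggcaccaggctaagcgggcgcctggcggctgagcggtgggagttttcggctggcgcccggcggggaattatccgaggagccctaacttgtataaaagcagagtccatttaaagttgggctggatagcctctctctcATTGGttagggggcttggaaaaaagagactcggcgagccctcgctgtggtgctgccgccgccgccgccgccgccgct

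Of the 4 windows, UHRF1 holds the E2F word TTTCCCGC, 14 bases before its start, with a CCAAT and 2 GC boxes further up. PHF19 holds 6 GC boxes and a CCAAT, KDM5B 3 GC boxes, and JARID2 1 GC box and 1 CCAAT. Promoters of 44 members were found in RefSeq. An E2F word stood in 4 of these 44 (9.09%), in SUZ12, NSD2, KDM1B and UHRF1, against 1.96% of all 27305 promoters. The E-box stood in 10 (22.7%), against 6.49% of all promoters, the GC box in 29 (65.9%), against 42.3%, CCAAT in 15 (34.1%), against 33.0%, and the NRF1 word in 7 (15.9%), against 5.53%. The member windows were also richer in CpG, with a median of 22 CpG against 11 in all promoters. These counts describe letters in 1 window per gene and no binding was measured.

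At 24 h, 7 of the 36 tested members passed the test (limma, adjusted p under 0.05 over all 10323 genes), or 19.4%, against 27.6% of all genes. JARID2, CBX7 and KDM5B were higher with vorinostat, and EED, PHF19, DNMT3A and UHRF1 were lower. Over all genes 16.5% were higher and 11.1% lower. The median log2 fold change was -0.07 over the members and 0.04 over all genes. On 17 members the arrays of both groups did not overlap, 7 with every vorinostat array higher and 10 with every vorinostat array lower, where 46.4% of all genes had no overlap (26.2% higher and 20.3% lower). When each array was scaled by its median rather than by quantiles, the median of all genes shifted by -0.12 on the log2 scale and higher genes made up 42.1% in place of 59.7% of the calls, with 2 members higher and 8 lower. The members that became lower were the dim genes SUV39H2, KDM1B, KDM4B and KDM4C, and CBX7 was no longer called.

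At 6 d, 3 of the 36 members passed, or 8.33%, against 11% over the whole set of genes. PHF19 and BMI1 were higher with vorinostat and CBX7 was lower, where 4.0% of all genes were higher and 7.01% lower. The median log2 fold change was 0.01 over the members and -0.02 over all genes. On 12 members the arrays did not overlap, 7 higher and 5 lower with vorinostat, where 38.6% of all genes had no overlap (16.9% higher and 21.7% lower). The change itself differed between the times for 9 members, or 25%, against 30.8% of all genes (limma, 6 d effect minus 24 h effect). In this difference, where 12.2% of all genes were higher and 18.6% lower, PHF19, EED, BMI1, KDM2B and UHRF1 were higher and JARID2, CBX7, NSD2 and KDM5B were lower. CBX7 is in these counts although it entered the test only through the DMSO arrays of 6 d, where it is high. In these bulk samples, a different share of cells with a transcript and a different amount of RNA per cell cannot be told apart.

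**Figure D1:**
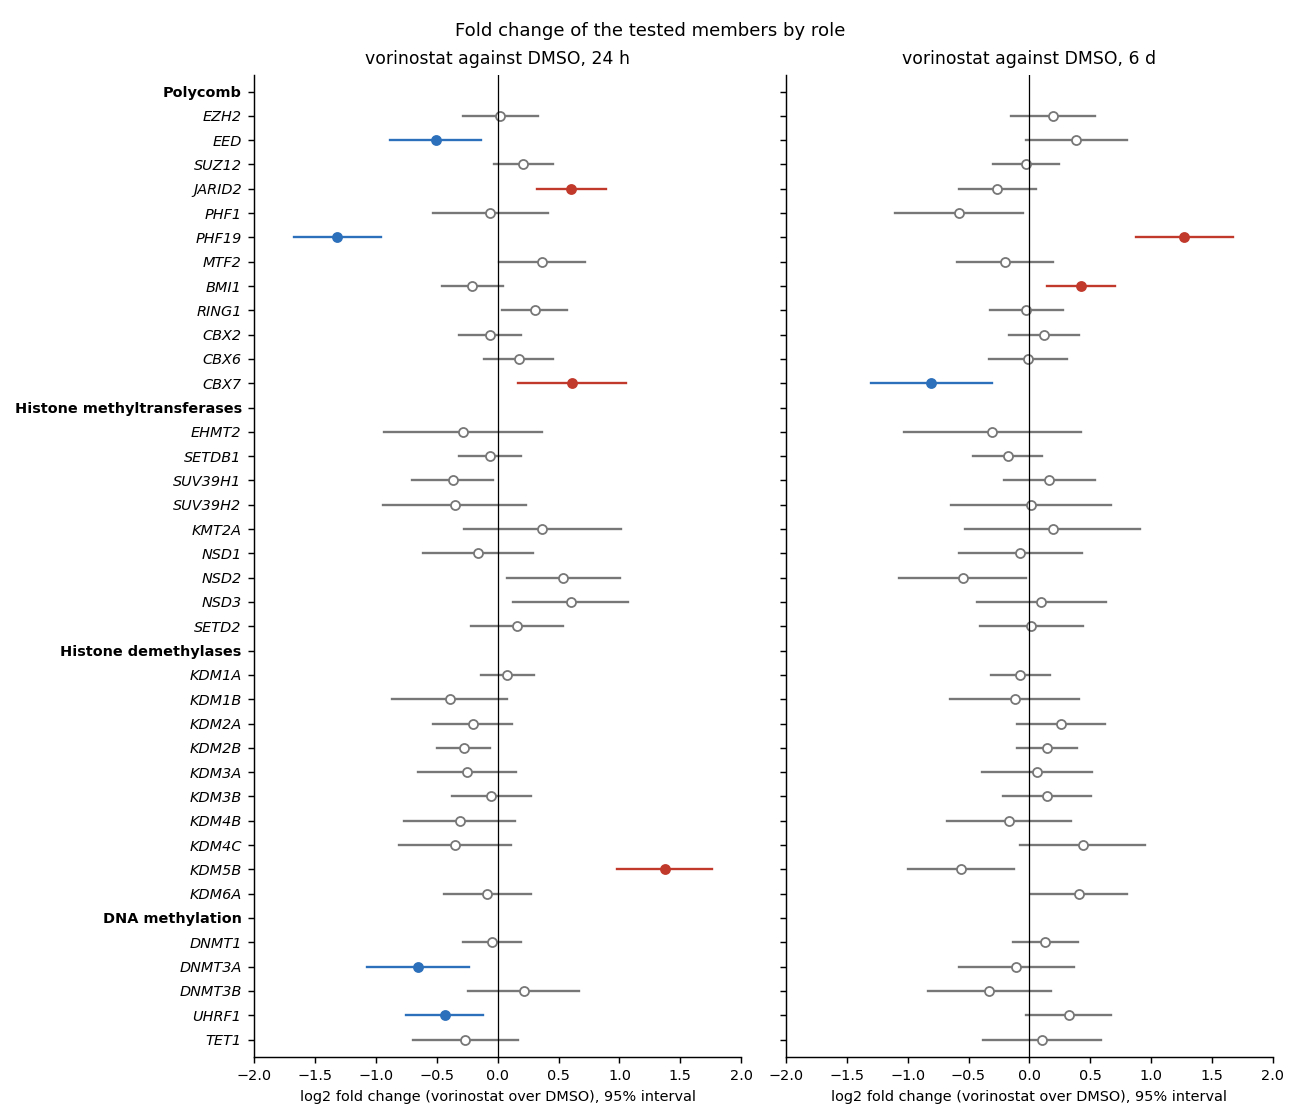
Log2 fold change of vorinostat over DMSO for the 36 tested members, by role, at 24 h (left) and 6 d (right), with 95% intervals from limma. Filled points passed the test (red higher, blue lower with vorinostat) and open grey points did not, and PHF19 stands at -1.32 at 24 h and 1.27 at 6 d. The points of CBX7 are fitted values that include groups not above background.

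Among the Polycomb genes the main change was in PHF19, a Polycomb-like protein with a Tudor domain that brings PRC2 to chromatin. Its log2 level was 7.41, 7.46 and 7.70 with vorinostat and 8.91, 8.73 and 8.88 with DMSO at 24 h. All vorinostat arrays lay below all DMSO arrays. The level was 2.49-fold lower with vorinostat (log2 fold change -1.32, SE 0.17, adjusted p = 4.36e-05 from limma). At 6 d its level was 8.68 and 8.88 with vorinostat and 7.33, 7.23 and 7.96 with DMSO, with both vorinostat arrays above the 3 DMSO arrays. There it was 2.41-fold higher with vorinostat (log2 fold change 1.27, SE 0.19, adjusted p = 0.000749 from limma). The vorinostat arrays of 6 d thus stood at the level of the DMSO arrays of 24 h, and the DMSO arrays of 6 d near the vorinostat arrays of 24 h, across different BeadChips. The 24 h call was kept in 22 of 22 alternatives, and the 6 d call in 21 of 22, being lost in a per-gene analysis of variance (adjusted p = 0.287), in which 0 of all 10323 genes passed at 6 d.

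PHF19 had a further pair of probes. One, annotated to the same transcript, gave log2 fold changes of -1.26 at 24 h and 1.24 at 6 d, both past the threshold when each probe was tested on its own (limma, adjusted p = 0.000755 and 0.00628). The other, annotated to another transcript of the gene, gave -0.85 at 24 h (adjusted p = 0.000292 from limma) and 0.07 at 6 d (adjusted p = 0.835 from limma). The 6 d value of that probe had a standard error of 0.15, so that the probes of PHF19 were lower together at 24 h but did not give the same result at 6 d. The Polycomb-like relatives did not pass. MTF2, which also links PRC2 to CpG-rich DNA, had log2 fold changes of 0.36 at 24 h and -0.20 at 6 d (limma, adjusted p = 0.114 and 0.538), and its difference between the times passed without vorinostat 6 d replicate 3 (-0.77, adjusted p = 0.0466). PHF1, the third of these proteins, had -0.06 and -0.58 (adjusted p = 0.862 and 0.148), with 0.26 and -0.18 on its other probe.

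JARID2, a DNA-binding cofactor of PRC2, had log2 levels of 8.61, 8.76 and 8.63 with vorinostat and 7.80, 8.28 and 8.11 with DMSO at 24 h. The arrays did not overlap, and JARID2 was 1.52-fold higher with vorinostat (log2 fold change 0.61, SE 0.13, adjusted p = 0.00313 from limma). At 6 d its levels were 8.15 and 8.40 with vorinostat and 8.51, 8.57 and 8.53 with DMSO. Here the vorinostat arrays were the lower ones, at -0.26 on the log2 scale, which missed the threshold (adjusted p = 0.286 from limma). Both effects differed by -0.87 (SE 0.20, adjusted p = 0.00377 from limma), a call kept in 20 of 20 alternatives, and the 24 h call was lost only in the per-gene analysis of variance of the 22 alternatives (adjusted p = 0.0637).

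EED, the PRC2 subunit that binds the methylated histone tail, had log2 levels of 7.12, 6.97 and 6.81 with vorinostat and 7.49, 7.37 and 7.55 with DMSO at 24 h. It was 1.42-fold lower with vorinostat (log2 fold change -0.51, SE 0.18, adjusted p = 0.0413 from limma), with no overlap of the arrays. At 6 d its levels were 7.11 and 7.62 with vorinostat and 6.95, 6.72 and 7.27 with DMSO, which overlapped (log2 fold change 0.39, adjusted p = 0.23 from limma). The 24 h call was kept in 12 of 22 alternatives, and it was lost in a table normalized by the authors (adjusted p = 0.055 from limma). It was lost without any single array of 24 h and without DMSO 6 d replicate 1 (adjusted p from 0.0511 to 0.141 in limma). The difference between the times, 0.90 (SE 0.26, adjusted p = 0.0174 from limma), was lost without vorinostat 6 d replicate 3 (adjusted p = 0.109).

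The catalytic and scaffold subunits of PRC2 did not pass at either time. EZH2 had log2 levels of 7.83, 7.99 and 7.96 with vorinostat and 8.04, 8.02 and 7.66 with DMSO at 24 h, and 8.03 and 7.98 with vorinostat and 7.57, 7.93 and 7.93 with DMSO at 6 d. The groups overlapped at 24 h, where the log2 fold change was 0.02 (95% interval -0.28 to 0.33). At 6 d both vorinostat arrays lay above the DMSO arrays by a small margin, at 0.19 (95% interval -0.15 to 0.54). Of its other probes, one gave -0.35 at 24 h and 0.60 at 6 d, neither of which passed, and a difference of 0.94 between the times that did (adjusted p = 0.0154 from limma), and the other gave 0.14 and 0.09. SUZ12, the scaffold of PRC2, was measured at 11.23, 11.24 and 11 with vorinostat and 10.97, 11.11 and 10.75 with DMSO at 24 h. At 6 d its levels were 10.83 and 10.70 with vorinostat and 10.93, 10.59 and 10.85 with DMSO. Its intervals were -0.03 to 0.45 at 24 h and -0.30 to 0.24 at 6 d.

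Of the PRC1 genes, BMI1 and CBX7 passed at some time. BMI1, which stimulates the ubiquitin ligase of PRC1, had log2 levels of 9.32, 9.33 and 9.37 with vorinostat and 9.57, 9.58 and 9.49 with DMSO at 24 h, or -0.21 on the log2 scale, which missed the threshold (adjusted p = 0.203 from limma) although the arrays did not overlap. It passed in the per-gene analysis of variance (adjusted p = 0.0272). At 6 d it had 9.48 and 9.33 with vorinostat and 9.23, 8.74 and 8.97 with DMSO. That was 1.34-fold higher with vorinostat (log2 fold change 0.43, SE 0.13, adjusted p = 0.0483 from limma). The 6 d call was kept in 7 of 22 alternatives and was lost without any single array except DMSO 6 d replicate 1 (adjusted p from 0.056 to 0.279). The difference between the times was 0.64 (SE 0.18, adjusted p = 0.0127 from limma), and it was lost without vorinostat 6 d replicate 2 (adjusted p = 0.0653).

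CBX7, a chromodomain reader in PRC1, was close to background. It was detected on 2 of 3 vorinostat arrays and on 0 of 3 DMSO arrays at 24 h, and on 0 of 2 vorinostat arrays and 3 of 3 DMSO arrays at 6 d. Its log2 levels were 5.17, 4.98 and 4.73 with vorinostat and 4.27, 4.49 and 4.29 with DMSO at 24 h, and 4.36 and 4.38 with vorinostat and 5.22, 5.16 and 5.16 with DMSO at 6 d. The DMSO arrays of 24 h and the vorinostat arrays of 6 d were not above background, so a floor stood for them. Against this floor CBX7 was 1.43-fold higher with vorinostat at 24 h and 1.67-fold lower at 6 d. The fitted values gave adjusted p = 0.0407 at 24 h and 0.0382 at 6 d from limma. These folds are approximate. CBX7 passed the filter only through DMSO at 6 d, the group where it is highest, so that a difference from that group follows in part from the filter and its 6 d p-value is no support for one. No size can be given for the difference between the times. The floor was the lowest signal of any detected probe on each array, or the signal of CBX7 where higher. It is no strict limit. On vorinostat 24 h replicate 3 CBX7 was not detected at 4.73, where the lowest detected probe had 4.39, and that array is in the mean. Under median scaling the 24 h fold change was -0.09, on the log2 scale, and with replicate blocks the 24 h call was lost (adjusted p = 0.0674). In the table normalized by the authors the calls at 24 h and 6 d were lost (adjusted p = 0.109 and 0.0794 from limma). The call at 24 h was also lost without any of 4 arrays (vorinostat replicates 1 and 2, DMSO replicates 1 and 3; adjusted p from 0.091 to 0.167), and that at 6 d without any array of 6 d or vorinostat 24 h replicate 1 or 2 (adjusted p from 0.0515 to 0.162).

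The remaining PRC1 members did not pass. RING1, a ubiquitin ligase of PRC1, had log2 levels of 10.08, 10.00 and 10.23 with vorinostat and 9.67, 9.73 and 9.99 with DMSO at 24 h, with no overlap (log2 fold change 0.30, adjusted p = 0.085 from limma). With replicate blocks it passed (adjusted p = 0.0143), and it also passed at 24 h without DMSO 24 h replicate 3 or DMSO 6 d replicate 2 (adjusted p from 0.0431 to 0.0441). The chromodomain genes CBX2 and CBX6 had log2 fold changes between -0.07 and 0.17 at both times. Among 20 other Polycomb genes 16 were tested, and at 24 h RYBP was higher and PCGF6 and L3MBTL2 were lower with vorinostat (18.8% called, against 27.6% of all genes). RYBP, a subunit of variant PRC1, was higher by 0.48 in log2 (adjusted p = 0.00411 from limma), PCGF6, which defines another variant, -0.72 (adjusted p = 0.000749 from limma), and L3MBTL2, a partner of PCGF6, -0.96 (adjusted p = 0.000154 from limma). RYBP and L3MBTL2 passed in 22 of 22 alternatives, and PCGF6 in 21 of 22, being lost with the mean of its probes. None of the 16 passed at 6 d, in limma, against 11% of all genes (the per-gene analysis of variance gave 0 here as over all genes). An unadjusted p under 0.05 at 6 d was found for 4 of the 16. Among all 10323 genes it was found for 1092 higher and 1576 lower ones.

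**Figure D2:**
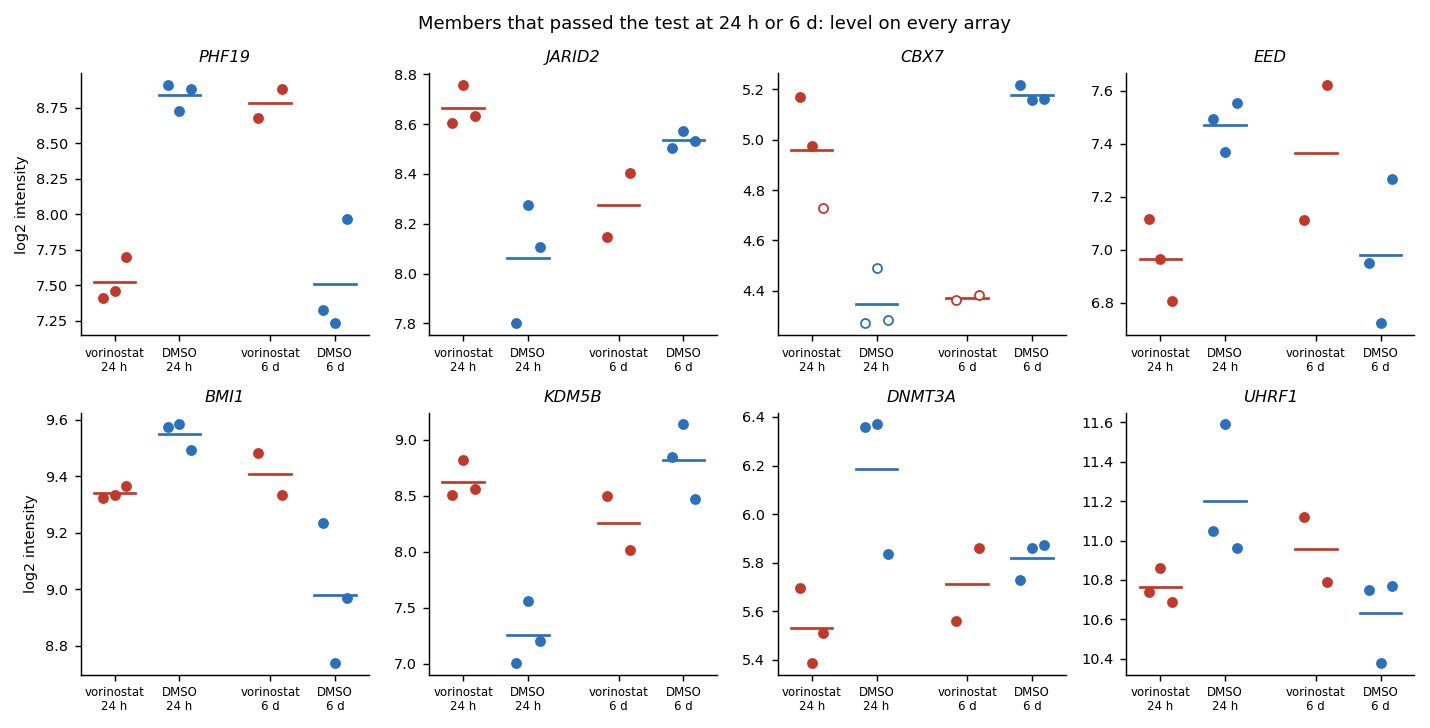
Log2 intensity on every array for the 8 members that passed at 24 h or 6 d, vorinostat in red and DMSO in blue, with lines at the group means and open circles where the probe was not detected. PHF19 lies between 7.41 and 7.70 on the vorinostat arrays of 24 h and between 8.73 and 8.91 on the DMSO arrays, and CBX7 is open in 2 whole groups.

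None of the 9 tested histone methyltransferases passed at 24 h or at 6 d in limma. Of all genes 27.6% passed at 24 h and 11% at 6 d. An unadjusted p under 0.05 was found for 3 of the 9 at 24 h and 1 at 6 d. Among all 10323 genes it was found for 2350 higher and 1702 lower ones at 24 h. At 6 d it was found for 1092 higher and 1576 lower ones. In the per-gene analysis of variance NSD3 alone passed, at 24 h, and 0 of all genes passed at 6 d. Fold changes ran from -0.37 to 0.60 on the log2 scale at 24 h and from -0.55 to 0.19 at 6 d. NSD3, NSD2 and SUV39H1 were nearest to the threshold at 24 h. NSD3, which dimethylates a lysine of histone H3 in gene bodies, had log2 levels of 6.45, 6.39 and 6.36 with vorinostat and 5.61, 5.99 and 5.80 with DMSO at 24 h. The arrays did not overlap (log2 fold change 0.60, SE 0.22, adjusted p = 0.0575 from limma), and with replicate blocks NSD3 passed (adjusted p = 0.0265). Its other probe gave 0.07 at 24 h. It also passed without any one of DMSO replicates 2 and 3 and vorinostat replicates 2 and 3 of 6 d (adjusted p from 0.0347 to 0.047).

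SUV39H1, which trimethylates histone H3 in heterochromatin, had log2 levels of 8.63, 8.65 and 8.998 with vorinostat and 9.09, 9.05 and 9.25 with DMSO at 24 h (log2 fold change -0.37, SE 0.16, adjusted p = 0.0916 from limma). With replicate blocks it passed at 24 h (adjusted p = 0.0273). The call changed also without 1 array: it passed at 24 h without DMSO 6 d replicate 2 (adjusted p = 0.031), and the difference between the times passed without DMSO 6 d replicate 3 (adjusted p = 0.0255). The other heterochromatin enzymes EHMT2, SETDB1 and SUV39H2 had log2 fold changes from -0.35 to -0.07 at 24 h and from -0.30 to 0.01 at 6 d. KMT2A, which methylates histone H3 at active promoters, spread widely within groups, from 5.91 to 6.81 with vorinostat and from 5.52 to 6.63 with DMSO at 24 h, and its 95% interval was -0.27 to 1.01. NSD1 and SETD2 had log2 fold changes between -0.16 and 0.16 at both times.

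NSD2, which dimethylates histone H3 like NSD3, was the methyltransferase whose effect differed between the times. Its log2 levels were 5.98, 5.46 and 5.70 with vorinostat and 4.95, 5.45 and 5.12 with DMSO at 24 h, and 5.03 and 5.04 with vorinostat and 5.87, 5.49 and 5.38 with DMSO at 6 d. The vorinostat arrays were thus the higher ones at 24 h and the lower ones at 6 d, and the effects differed by -1.09 (SE 0.33, adjusted p = 0.0197 from limma), though neither time passed on its own. The probe was detected on 1 of the 2 vorinostat arrays of 6 d. The difference did not pass with median scaling (-0.49, adjusted p = 0.276), nor without vorinostat 24 h replicate 1, DMSO 6 d replicate 1 or vorinostat 6 d replicate 2 (adjusted p from 0.0529 to 0.0606), and NSD2 passed at 24 h without DMSO 24 h replicate 2 (adjusted p = 0.0474). A dimmer probe of NSD2 was detected on 3 of 3 vorinostat arrays and 0 of 3 DMSO arrays at 24 h. It was about 2.07-fold higher with vorinostat there, against a floor set as for CBX7. That probe passed the filter only through the vorinostat arrays of 24 h and gives no support to the result.

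Among 22 other histone methyltransferases and COMPASS subunits, 19 were tested. At 24 h 1 was higher and 6 were lower with vorinostat (36.8%, against 27.6% of all genes, of which 11.1% were lower), and 10 of the 19 had arrays below DMSO without overlap, as had 20.3% of all genes. The lower ones included WDR5 and ASH2L, core subunits shared by the COMPASS complexes that methylate histone H3 at promoters (log2 fold changes -0.45 and -0.33, adjusted p = 0.0226 and 0.0193 from limma), and SETD1B, a catalytic subunit of such a complex (-0.69, adjusted p = 0.0299). PRMT1, the main asymmetric arginine methyltransferase, had log2 levels of 9.92, 9.79 and 9.69 with vorinostat and 10.50, 10.61 and 10.30 with DMSO at 24 h (log2 fold change -0.67, SE 0.11, adjusted p = 0.000311 from limma). At 6 d PRMT1 had 10.41 and 10.59 with vorinostat and 10.08, 9.89 and 10.10 with DMSO, 1.4-fold higher (adjusted p = 0.0171 from limma). KMT5A, which monomethylates histone H4, and SMYD2 were lower at 24 h (-0.65 and -0.55), SMYD3 was higher (0.39), and at 6 d SMYD2 was higher (0.45) and CARM1, an arginine methyltransferase, was lower (-0.36). The 24 h calls of PRMT1, KMT5A and SMYD2 were kept in 22 of 22 alternatives, those of SMYD3 in 20, ASH2L in 19, WDR5 in 17 and SETD1B in 15, the last 4 being lost without at least 1 of the 24 h arrays. Of the 6 d calls, PRMT1 was kept in 17 of 22 and was lost without either vorinostat array of 6 d, CARM1 was kept in 7 and SMYD2 in 6, and these were lost on leaving out most single arrays.

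**Figure D3:**
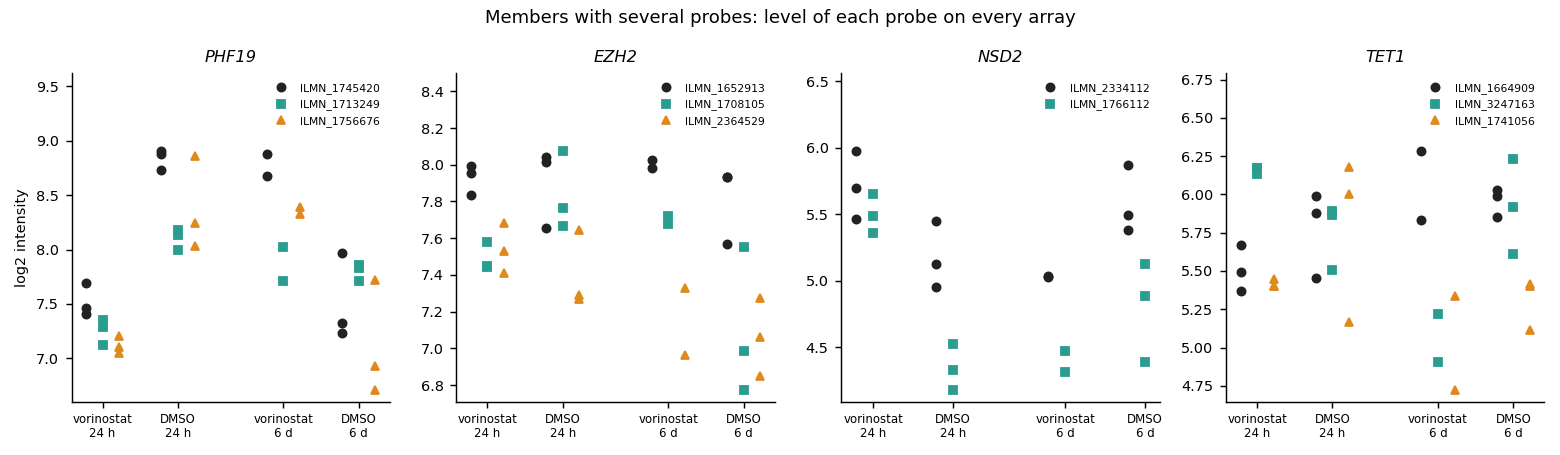
Log2 intensity of each tested probe on every array for 4 members with several probes, in the order vorinostat 24 h, DMSO 24 h, vorinostat 6 d and DMSO 6 d. The 3 probes of PHF19 are lower with vorinostat at 24 h, and 1 of the 3 probes of TET1 (ILMN_3247163) lies at 5.22 and 4.91 on the vorinostat arrays of 6 d, below the DMSO arrays, while the other 2 overlap.

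Of 10 tested histone demethylases, KDM5B passed at 24 h and none at 6 d in limma, against 27.6% and 11% of all genes. At 6 d 2 of the 10 had an unadjusted p under 0.05, as had 1092 higher and 1576 lower genes of all 10323. The analysis of variance gave 0 at 6 d here as over all genes. KDM5B removes methyl groups from the histone H3 lysine that marks active promoters. Its log2 levels were 8.51, 8.82 and 8.56 with vorinostat and 7.01, 7.56 and 7.20 with DMSO at 24 h. All vorinostat arrays lay above all DMSO arrays, and KDM5B was 2.59-fold higher with vorinostat (log2 fold change 1.37, SE 0.18, adjusted p = 6.38e-05 from limma), a call kept in 22 of 22 alternatives. At 6 d its levels were 8.50 and 8.02 with vorinostat and 8.85, 9.14 and 8.47 with DMSO. These overlapped, and the change of -0.56 on the log2 scale (SE 0.21) missed the threshold (adjusted p = 0.0899 from limma) but passed without DMSO 6 d replicate 3 (adjusted p = 0.0253). The effects differed by -1.94 (SE 0.28, adjusted p = 9.1e-05 from limma), in 20 of 20 alternatives. On the DMSO arrays alone KDM5B averaged 8.82 at 6 d and 7.26 at 24 h, and these arrays lay on different BeadChips.

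KDM1A (LSD1), the flavin-dependent demethylase of the CoREST complex, did not pass at either time. Its log2 levels were 9.39, 9.42 and 9.56 with vorinostat and 9.49, 9.39 and 9.24 with DMSO at 24 h, and 9.35 and 9.40 with vorinostat and 9.49, 9.46 and 9.40 with DMSO at 6 d. Intervals ran from -0.14 to 0.30 at 24 h and from -0.32 to 0.17 at 6 d. KDM2B, a Jumonji demethylase that brings variant PRC1 to CpG islands, had log2 levels of 9.33, 9.43 and 9.45 with vorinostat and 9.56, 9.83 and 9.66 with DMSO at 24 h (log2 fold change -0.28, SE 0.10, adjusted p = 0.054 from limma). At 6 d it had 9.62 and 9.57 with vorinostat and 9.34, 9.47 and 9.54 with DMSO. The effects differed by 0.42 (SE 0.16, adjusted p = 0.0486 from limma). With replicate blocks KDM2B passed at 24 h (adjusted p = 0.0244). It also passed at 24 h without any 1 DMSO array of 6 d (adjusted p from 0.0466 to 0.0487), and the difference was lost without any 1 of 9 arrays, all but DMSO 24 h replicate 1 and DMSO 6 d replicate 3 (adjusted p from 0.0524 to 0.135).

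The other 7 demethylases tested had log2 fold changes from -0.39 to -0.05 at 24 h. KDM1B, KDM2A and KDM4B had arrays below DMSO without overlap, as had 20.3% of all genes, with KDM1B detected on 1 of 3 vorinostat arrays. At 6 d KDM6A, which removes the PRC2 mark, had log2 levels of 7.01 and 6.61 with vorinostat and 6.39, 6.34 and 6.47 with DMSO (log2 fold change 0.41, adjusted p = 0.182 from limma), and KDM4C, which acts on heterochromatic histone H3, had 5.68 and 5.39 with vorinostat and 5.02, 4.99 and 5.29 with DMSO (0.44, adjusted p = 0.273 from limma). The difference between the times passed for KDM4C without DMSO 24 h replicate 3 (adjusted p = 0.0291) and for KDM2A without DMSO 6 d replicate 2 (adjusted p = 0.0498). Of 10 other demethylases and LSD1 partners 7 were tested. KDM4D, a relative of KDM4C, was detected on 3 of 3 vorinostat arrays and 0 of 3 DMSO arrays at 24 h. Against a floor set as for CBX7, KDM4D was about 1.995-fold higher with vorinostat (adjusted p = 0.00843 from limma, kept in 17 of 21 alternatives and lost without vorinostat 24 h replicate 1). Since it passed the filter through the groups where it is high, this p-value is no support. At 6 d RIOX1 was higher (0.57, adjusted p = 0.0449 from limma) and RCOR2, a corepressor that binds LSD1, was lower (-0.60, adjusted p = 0.0426 from limma). Both 6 d calls were kept in 10 of 22 alternatives and were lost without either vorinostat array of 6 d.

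**Figure D4:**
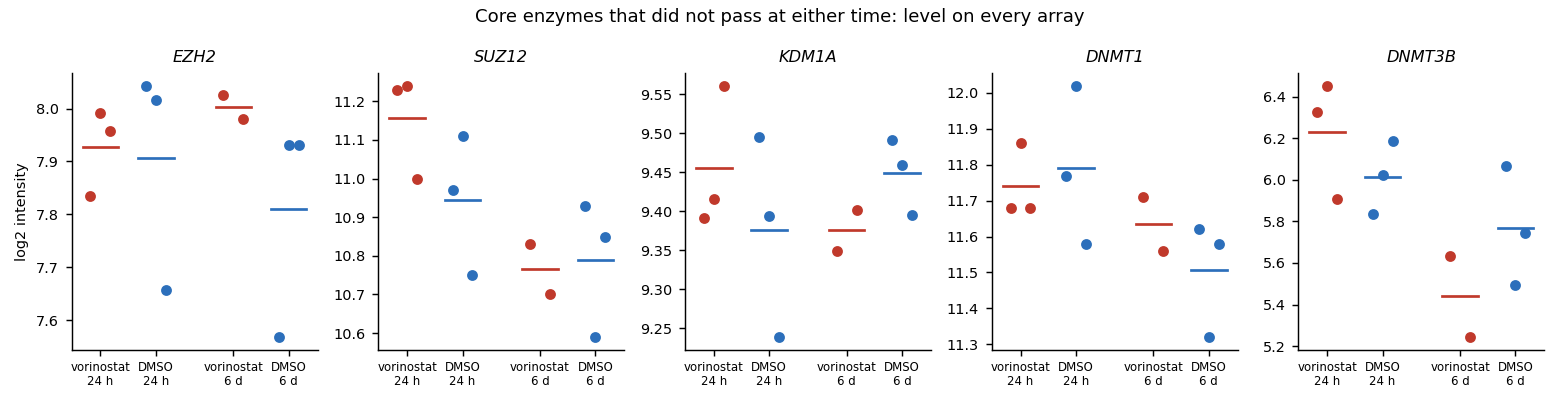
Log2 intensity on every array for 5 core enzymes that did not pass at either time, vorinostat in red and DMSO in blue, with lines at the group means. EZH2 lies between 7.57 and 8.04 and DNMT1 between 11.32 and 12.02 over the 11 arrays.

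In DNA methylation, DNMT3A and UHRF1 were lower with vorinostat at 24 h and none of the 5 tested genes passed at 6 d in limma. Of all genes 27.6% were called at 24 h, with 11.1% lower, and 11% at 6 d. Whether 2 of 5 differs from these shares was not tested. At 6 d 0 of the 5 had an unadjusted p under 0.05, as had 1092 higher and 1576 lower genes of all 10323. The analysis of variance gave 0 at 6 d here as over all genes. UHRF1 recognizes hemimethylated DNA behind the replication fork and brings DNMT1 to it. Its log2 levels were 10.74, 10.86 and 10.69 with vorinostat and 11.05, 11.59 and 10.96 with DMSO at 24 h, without overlap, or 1.35-fold lower (log2 fold change -0.44, SE 0.15, adjusted p = 0.038 from limma). At 6 d they were 11.12 and 10.79 with vorinostat and 10.75, 10.38 and 10.77 with DMSO, with the vorinostat arrays the higher ones (log2 fold change 0.32, adjusted p = 0.236 from limma). The effects differed by 0.76 (SE 0.22, adjusted p = 0.0169 from limma). The 24 h call was kept in 14 of 22 alternatives and was lost without DMSO 24 h replicate 2 or any vorinostat array of 24 h (adjusted p from 0.06 to 0.191), and the difference was lost without vorinostat 6 d replicate 2 (adjusted p = 0.105). A dimmer UHRF1 probe had log2 fold changes of -0.01 (SE 0.35) at 24 h and 0.42 (SE 0.40) at 6 d, and the mean of both probes was -0.22 at 24 h (adjusted p = 0.506).

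DNMT3A, a methyltransferase that sets new DNA methylation, had log2 levels of 5.70, 5.39 and 5.51 with vorinostat and 6.36, 6.37 and 5.83 with DMSO at 24 h. The arrays did not overlap, and DNMT3A was 1.57-fold lower (log2 fold change -0.66, SE 0.20, adjusted p = 0.0224 from limma). Of its 3 probes 1 passed the filter, and the others, annotated to other transcripts, were detected on 0 of 11 arrays. The call was kept in 15 of 22 alternatives and was lost without DMSO 24 h replicate 1 or 2 or vorinostat 24 h replicate 2 or 3 (adjusted p from 0.0619 to 0.0986). In the table normalized by the authors DNMT3A did not pass at 24 h (-0.23, adjusted p = 0.0609 from limma). At 6 d its levels of 5.56 and 5.86 with vorinostat and 5.73, 5.86 and 5.87 with DMSO overlapped (log2 fold change -0.11, adjusted p = 0.81 from limma). DNMT3B, the relative of DNMT3A, had 6.33, 6.45 and 5.91 with vorinostat and 5.84, 6.02 and 6.18 with DMSO at 24 h, and 5.63 and 5.24 with vorinostat and 6.06, 5.49 and 5.75 with DMSO at 6 d. Its intervals were -0.24 to 0.67 and -0.84 to 0.18. A second DNMT3B probe, detected on all 11 arrays, gave -0.25 at 24 h and -0.40 at 6 d, which did not pass.

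DNMT1, the maintenance methyltransferase, was bright and overlapped at both times. Its log2 levels were 11.68, 11.86 and 11.68 with vorinostat and 11.77, 12.02 and 11.58 with DMSO at 24 h, and 11.71 and 11.56 with vorinostat and 11.62, 11.32 and 11.58 with DMSO at 6 d. Its intervals were -0.29 to 0.19 at 24 h and -0.13 to 0.40 at 6 d. TET1, a dioxygenase that oxidizes methylcytosine, had 3 probes that disagreed. The brightest gave log2 fold changes of -0.27 at 24 h and 0.10 at 6 d, which did not pass (limma, adjusted p = 0.352 and 0.824). A probe of nearly equal brightness gave 0.41 at 24 h, which did not pass, and -0.86 at 6 d, which did (adjusted p = 0.0287 from limma when each probe was tested on its own), with levels of 5.22 and 4.91 with vorinostat and 6.23, 5.61 and 5.92 with DMSO. The third gave -0.36 and -0.28. Of 11 methyl-CpG readers and demethylation genes 9 were tested. ZBTB4, which binds methylated CpG, was higher at 24 h (0.41, adjusted p = 0.0456 from limma), and TDG, a glycosylase that removes oxidized methylcytosine, was lower at 24 h (-0.35, adjusted p = 0.0286 from limma) and higher at 6 d (0.42, adjusted p = 0.0437 from limma). At 24 h ZBTB4 was kept in 13 of 22 alternatives, being lost without any 1 array of 24 h, and TDG in 14. At 6 d TDG was kept in 8 of 22, being lost on leaving out most single arrays.

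Several of these genes are known to follow the cell cycle, so 18 proliferation genes are given beside them. At 24 h MCM5, MCM7, TYMS and PLK1 were lower with vorinostat and TOP2A was higher (27.8% called, against 27.6% of all genes), and at 6 d PCNA, MCM5, TYMS, RRM2 and BIRC5 were higher and 0 lower (27.8% called, where 4.0% of all genes were higher and 7.01% lower). The 24 h calls of MCM5 and TYMS were kept in 22 of 22 alternatives, PLK1 in 18, MCM7 in 17 and TOP2A in 15. At 6 d MCM5 and TYMS were kept in 20 of 22, being lost without vorinostat 6 d replicate 2, BIRC5 in 10, RRM2 in 8 and PCNA in 7. The median log2 level of the list was 9.84 to 9.95 on the vorinostat arrays and 9.89 to 10.13 on the DMSO arrays at 24 h, and 9.74 and 9.86 with vorinostat against 9.28 to 9.99 with DMSO at 6 d. Log2 fold changes of the list had a median of -0.17 (from -1.07 to 0.53) at 24 h and 0.22 (from -0.30 to 0.86) at 6 d. The ends at -1.07 and 0.86 were both TYMS, where PHF19 had -1.32 and 1.27 and UHRF1 -0.44 and 0.32. The part of proliferation in the fold changes of the members was not tested. The noradrenergic genes DBH and TH were also lower with vorinostat at 24 h (-0.49 and -1.05), and DBH was higher at 6 d (1.19), while the other 5 noradrenergic markers had 0.17 to 0.26 at 24 h and did not pass. Of 7 mesenchymal markers 3 were tested, with VIM higher (1.27) and THY1 lower (-0.32) at 24 h and CD44 not called.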

How the data were processed

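RNA of SK-N-BE(2)-C cells was hybridized to Illumina HT-12 v4 arrays. The deposited intensity values are the authors' BeadStudio output, 1 value per probe without normalization, and each has a detection p-value, which the authors deposited beside it. A table normalized by the authors in BeadStudio, by a method not given in the sources used here, served as an alternative. Probes were matched between both tables by value (48107 mutual pairs) and named from the platform annotation (30113 probes with 1 gene). Background correction used normexp (offset 16), followed by quantile normalization and a log2 transform, in limma 3.58.1 (R 4.3.3). A probe was kept if each array of 1 or more groups had it at a detection p under 0.01, with the brightest probe standing for its gene, and 10323 genes were fitted over 4 groups with eBayes and an intensity trend. The threshold was 0.05 after Benjamini-Hochberg adjustment. The brightness of an array and the number of arrays limit the precision.

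All member genes were to be named, with values per array for those past the threshold and for EZH2, EED, SUZ12, KDM1A, DNMT1, DNMT3A, DNMT3B and UHRF1. Other members are given with values where they came near the threshold, a choice made after their values were seen. The members and lists were chosen with earlier results of these data known. At 24 h same-numbered arrays deviated together (r = 0.111, 0.197 and 0.250), so the replicate block is given where it changed the 24 h call of a member. Alternatives were the background, the scaling, the filter, the probe per gene, the authors' table, the fit, a per-gene analysis of variance (the methods name one for 24 h, and here it was run on the quantile-normalized values and at 6 d too), the replicate block and leaving out each array. The scripts were tested on simulated data.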

Additional observations from a re-analysis of the deposited data

Results flagged for a closer look

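These genes stood out because a test of the difference itself (limma, effect of vorinostat over DMSO at 6 d minus that at 24 h, adjusted p under 0.05 over all genes) found that the effect of vorinostat was not the same at both times. Of all genes tested, 30.8% met this. Among the members the difference on the log2 scale was 2.59 for PHF19, 0.90 for EED, 0.64 for BMI1, 0.42 for KDM2B and 0.76 for UHRF1, and -0.87 for JARID2, -1.42 for CBX7, -1.09 for NSD2 and -1.94 for KDM5B. Among the other Polycomb genes it was 0.92 for PCGF6, 1.39 for L3MBTL2 and -0.79 for RYBP. Among the other methyltransferases and COMPASS subunits it was 1.10 for SETD1B, 0.78 for WDR5, 0.96 for KMT5A, 1.00 for SMYD2 and 1.15 for PRMT1, and -0.57 for SMYD3 and -0.49 for CARM1. Among the other demethylases and the readers it was 1.18 for JMJD6, -1.71 for KDM4D and 0.77 for TDG. The arrays of 24 h and 6 d lay on different BeadChips. For CBX7 and KDM4D the DMSO arrays of 24 h and the vorinostat arrays of 6 d were not above background, so that their values are fitted numbers and not measured sizes. Both genes passed the filter through groups where they are high, so that the test of their difference is no support for one.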

How the results depend on the processing

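Of the 7 members called at 24 h, 2 (PHF19 and KDM5B) were called in each of 22 alternatives. Of the 3 called at 6 d, 0 were, and of the 9 differences between the times 3 (PHF19, KDM5B and JARID2) were called in each of 20. At 24 h, with 3 members higher and 4 lower, the authors' table gave 5 higher, the arrays of that time alone 5 higher, median scaling 8 lower, no filter 1 lower and no intensity trend 2 lower. In the authors' table EED, DNMT3A and CBX7 were not called at 24 h, nor CBX7 at 6 d. MTF2, NSD3 and TET1 (higher) and KDM2B (lower) were called there at 24 h. At 6 d, with 2 higher and 1 lower, no filter and no intensity trend gave 1 higher, the background from probes near its centre and median scaling 0 lower, probes detected on all 11 arrays and the arrays of that time alone 1 higher and 0 lower, and the per-gene analysis of variance 0 in both directions. For the difference, with 5 higher and 4 lower, median scaling gave 9 higher, no filter 3 higher, the normalized values of the authors 7 lower and probes on all 11 arrays 2 lower. Leaving out 1 array gave 2 to 5 higher and 1 to 6 lower at 24 h, 1 to 2 higher and 0 to 1 lower at 6 d, and 2 to 6 higher and 3 to 5 lower in the difference. Over all genes at 6 d, 413 were higher and 724 lower, the arrays of that time alone gave 136 and 414, no filter 227 and 406, and the analysis of variance 0 and 0. Leaving out 1 array gave 74 to 554 higher and 201 to 812 lower at 6 d, and 1149 to 1820 higher and 677 to 1264 lower at 24 h. At 24 h 1146 genes were lower, with 1764 under median scaling, 836 with no filter, and 749 in the analysis of variance, and in the difference 1917 were lower, with 1270 on probes detected on all arrays. Without a vorinostat array of 6 d, the lone array was assumed to vary like the other groups.

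CBX7 turned to -0.091 at 24 h under median scaling. TET1 was 0.28 at 24 h, -0.35 at 6 d and -0.63 in the difference in the authors' table and -0.95 in the difference under median scaling, since another of its probes is the brightest there. With the replicate block, 4 members were higher and 6 lower at 24 h, 2 and 1 at 6 d, and 5 and 4 in the difference. At 6 d the numbers pair only 2 arrays each (r = 0.0859 and 0.102), so that they share only a number. For DMSO replicate 3 and vorinostat replicate 2 of 6 d, a description was noted to differ from the title in its number. The array names beside the intensities carry the same numbers as the titles, and the titles were used. With the replicate block numbered in this way, KDM5B passed at 6 d (adjusted p = 0.0219 in limma) and CBX7, SMYD2, CARM1, RIOX1, TDG and PCNA did not, and in the difference RING1 and SUV39H1 passed and NSD2 and KDM2B did not. The BeadChip could not be fitted as a block at 24 h.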
